A study of Caenorhabditis elegans with 71 samples.

Results

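The histone genes of Caenorhabditis elegans were followed through larval development in poly(A)-selected RNA of whole worms. They were taken as every row whose gene name is his- and a number, which gave 69 genes of 19120 named genes in the deposited table. By histone class they comprise 1 linker histone H1 gene, 17 H2A, 16 H2B, 19 H3 and 16 H4 genes. All 69 matched a RefSeq symbol, and RefSeq lists 72 such genes, of which 3 (his-39, his-40 and his-73) were not analysed here.

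The study sequenced 71 libraries from 4 populations. In each, embryos were isolated with hypochlorite and hatched without food, so that larvae arrested in the first stage, and time was counted from transfer to plates with OP50 bacteria. The lin-4(e912) mutant, which lacks a heterochronic microRNA, was grown at 20C and sampled every 2 h over 0 to 48 h (25 libraries). Wild type N2 worms were grown at 25C and sampled every 1.5 h over 0 to 28.5 h (20 libraries). A wild type N2 population at 20C was sampled every 2 h over 0 to 38 h (20 libraries), and an independent wild type N2 population at 20C over 38 to 48 h (6 libraries). Each time point was 1 library of a population of worms, so p-values measure the spread between libraries around a fitted course. Each genotype and temperature had a population of its own, and these cannot be told apart. In bulk samples, fewer cells of a type and less RNA per cell cannot be told apart either.

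Histones package DNA into nucleosomes made of H2A, H2B, H3 and H4, with H1 on the linker between them. In animals the bulk supply is made during DNA replication from many near-identical genes without introns, whose mRNAs usually end in a stem-loop, bound by a stem-loop binding protein (CDL-1 in worms), and carry no poly(A) tail. Replacement histones such as H3.3 are made outside replication, usually from single genes with introns and polyadenylated mRNAs. A poly(A)-selected library therefore samples these kinds of mRNA differently, and the part of that selection in the levels below was not tested.

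Depth was 12.3 to 36.5 M reads per library, estimated from the steps between the values of low genes. Most lin-4 libraries were most similar to wild type libraries of an earlier time. Over 6 to 38 h, 16 of 17 lin-4 libraries correlated best across genes with an earlier wild type library and 1 with the library of the same hour, at a median lag of 4 h. The lin-4 library at 30 h stood apart, since it was most like the wild type library of 16 h, a lag of 14 h, while the other lags were 0 to 6 h. Results that rest on that library are given with and without it.

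Histone levels fell into 2 ranges that followed gene structure. The 7 members with an intron averaged 27.7 to 443 RPKM over the 71 libraries, and the 62 single-exon members averaged 0.12 to 8.54 RPKM with a median of 2.97. RPKM scales reads by gene length and by library size, so these levels are per length. The means of the 2 kinds of gene did not overlap. A 3′ untranslated region is annotated in RefSeq for all 7 members with an intron and for 1 of the 62 others.

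The highest member was his-24 (M163.3), a linker histone H1 gene, at 443 RPKM. It was followed by his-72 (Y49E10.6), an H3.3-like gene, at 234 RPKM, and by his-35 (C50F4.13), an H2A gene, at 182 RPKM. A second H3.3-like gene, his-71 (F45E1.6), averaged 132 RPKM. The H4 gene his-37 (C50F4.7) averaged 109 RPKM and the H2B gene his-41 (C50F4.5) 104 RPKM. The H3.3-like gene his-74 (W05B10.1) was the lowest of the 7, at 27.7 RPKM. his-35, his-41 and his-37 are neighbours in the RefSeq gene order, so that 1 intron-containing gene each of H2A, H2B and H4 lies in 1 run of 3 histone genes.

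Among single-exon members the highest of each class were his-32 (H3) at 8.54 RPKM, his-3 (H2A) at 8.05 RPKM, his-60 (H4) at 7.69 RPKM and his-48 (H2B) at 5.68 RPKM. The lowest were his-69 at 0.12 RPKM, his-30 and his-33 at 0.28 RPKM each, his-67 at 0.40 RPKM and his-70 at 0.76 RPKM. his-70 was listed at 0 in 44 of 71 libraries. At the annotated exon lengths, the median value of a single-exon member rested on about 27 reads and that of a member with an intron on about 1749 reads, so small changes of the single-exon members are measured less precisely.

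**Figure D1:**
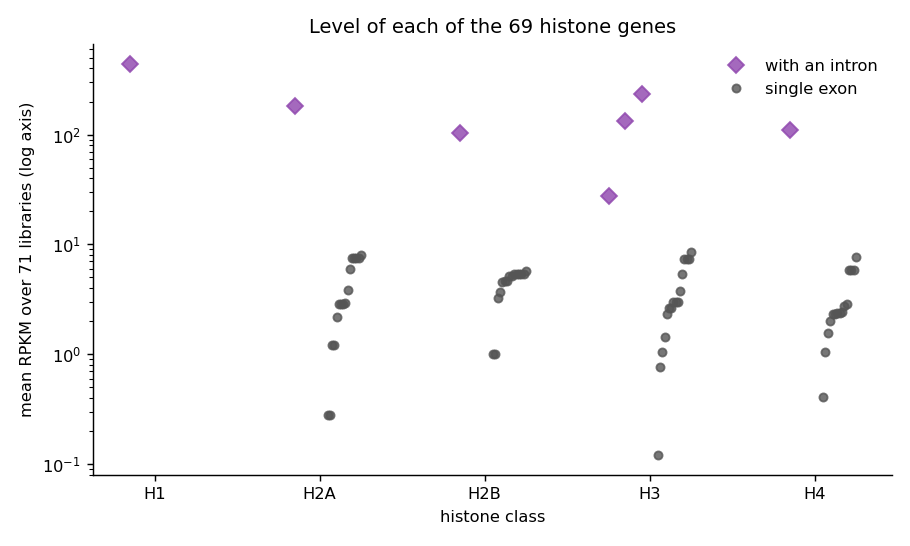
Mean RPKM over 71 libraries (log axis) of the 69 histone genes by class; diamonds mark the 7 genes with an intron and circles the 62 single-exon genes. Every diamond lies above every circle, from 27.7 RPKM upward against 8.54 RPKM and below.

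Many single-exon rows had values identical or close to those of other rows. In all, 16 pairs of members had identical values in all 71 libraries, which involved 21 members. Joining members whose RPKM had a median ratio close to 1 and a correlation of at least 0.9 gave 34 groups, of which 12 held 2 or more members and covered 47 of them. The 62 single-exon members fell into 27 such groups. Of the 12 groups, 6 spanned more than 1 genomic run of histone genes and 3 mixed classes, the largest with 9 rows of H3 and H4. In that group his-5 and his-18 (H4) were identical to his-17 (H3) in 0 libraries. A near-equal group can therefore hold genes with separate values, and a count per group can merge them. The sources used here do not give how reads matching several copies were counted, so counts of members are also given per near-equal group.

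Values of 3 low members also departed from whole reads. Among 5399 low genes, the median gene had 100% of its steps at a whole number of reads, within 0.01 read. That share was 96.3% for his-70 and 85.7% for his-67, against 16.1% for his-69 and 4.2% for each of his-30 and his-33. How those fractional values arose was not tested.

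Of the 7 genes with an intron, 2 fell and 1 rose in lin-4 larvae and at 25C, and 3 fell and 1 rose in wild type at 20C. Of all genes, 15.5%, 16.7% and 16.4% fell in lin-4, 25C and 20C wild type larvae, and 9.01%, 11.1% and 9.45% rose. In each of the 3 long courses the summed level of the 7 genes, of which the H1 gene his-24 had the highest mean at 443 RPKM, was lower at the end of the window than at its start. The start and end values were 1588 and 763 RPKM in lin-4 larvae (6 and 38 h), 1478 and 883 RPKM in wild type at 25C (4.5 and 28.5 h), and 2135 and 812 RPKM in wild type at 20C (6 and 38 h). The fitted change over each window was tested with limma on log2(RPKM + 1), beside cosine and sine terms for the molting cycle. A gene was called at an adjusted p under 0.05 with a change of at least 1 log2 unit, and all changes below are on that scale.

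his-24 had 192, 443 and 731 RPKM (lowest, median and highest of 17 libraries, 6 to 38 h) in lin-4 larvae. It had 189, 416 and 786 RPKM in wild type at 25C and 178, 477 and 1049.7 RPKM in wild type at 20C. Its lowest libraries were late in every course. The lin-4 library at 30 h had 519.5 RPKM, and its neighbours at 28 and 32 h had 251 and 394 RPKM. It fell by 1.55 ± 0.27 log2 units (SE) in lin-4 larvae, by 2.05 ± 0.24 in wild type at 25C and by 2.59 ± 0.25 in wild type at 20C, and was called in all 3.

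his-41, an H2B gene, had 64.6, 99.1 and 149.5 RPKM in lin-4 larvae, 70, 98.3 and 168 RPKM in wild type at 25C and 57.8, 87.8 and 144.5 RPKM in wild type at 20C. It fell by 1.17 ± 0.13 log2 units in lin-4 larvae, by 1.22 ± 0.14 at 25C and by 1.28 ± 0.12 at 20C, all called. Its lowest library was at 36 h in lin-4 larvae, at 27 h at 25C and at 38 h in wild type at 20C. With each library rescaled by its median ratio to the mean log level of genes present in all libraries, 2 of these changes became smaller than 1 unit, at -0.85 in lin-4 larvae and -0.98 at 25C.

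The H3.3-like genes did not move together. his-72 had 165, 253 and 334 RPKM in lin-4 larvae, 167, 208 and 327 RPKM in wild type at 25C and 148, 203 and 367 RPKM in wild type at 20C. It fell by 1.34 ± 0.15 log2 units in wild type at 20C and was called there, with changes of -0.89 ± 0.20 in lin-4 larvae and -0.74 ± 0.19 at 25C that passed the adjusted p and not the size. his-71 changed by -0.65, -0.54 and -0.98 log2 units in lin-4 larvae, wild type at 25C and wild type at 20C, with none called.

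his-74 took the opposite course. It had 13.4, 19.5 and 37.2 RPKM in lin-4 larvae, 12.5, 16.8 and 47.8 RPKM in wild type at 25C and 12.8, 20.0 and 49.7 RPKM in wild type at 20C. Its highest library was at 38 h in lin-4 larvae, at 27 h at 25C and at 38 h in wild type at 20C. It rose by 1.19 ± 0.13 log2 units in lin-4 larvae, by 1.72 ± 0.19 at 25C and by 1.89 ± 0.16 in wild type at 20C, called in all 3. At 38 and 48 h it had 37.2 and 74.1 RPKM in lin-4 larvae, and 48.4 and 85.8 RPKM in the later wild type population.

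The remaining members with an intron were not called in these windows. his-37 (H4) changed by -0.80 ± 0.16 log2 units in lin-4 larvae, by -0.82 ± 0.11 at 25C and by -0.85 ± 0.12 in wild type at 20C. his-35 (H2A) changed by -0.68, -0.70 and -0.62 log2 units. Both passed the adjusted p in all 3 courses without reaching 1 log2 unit.

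**Figure D2:**
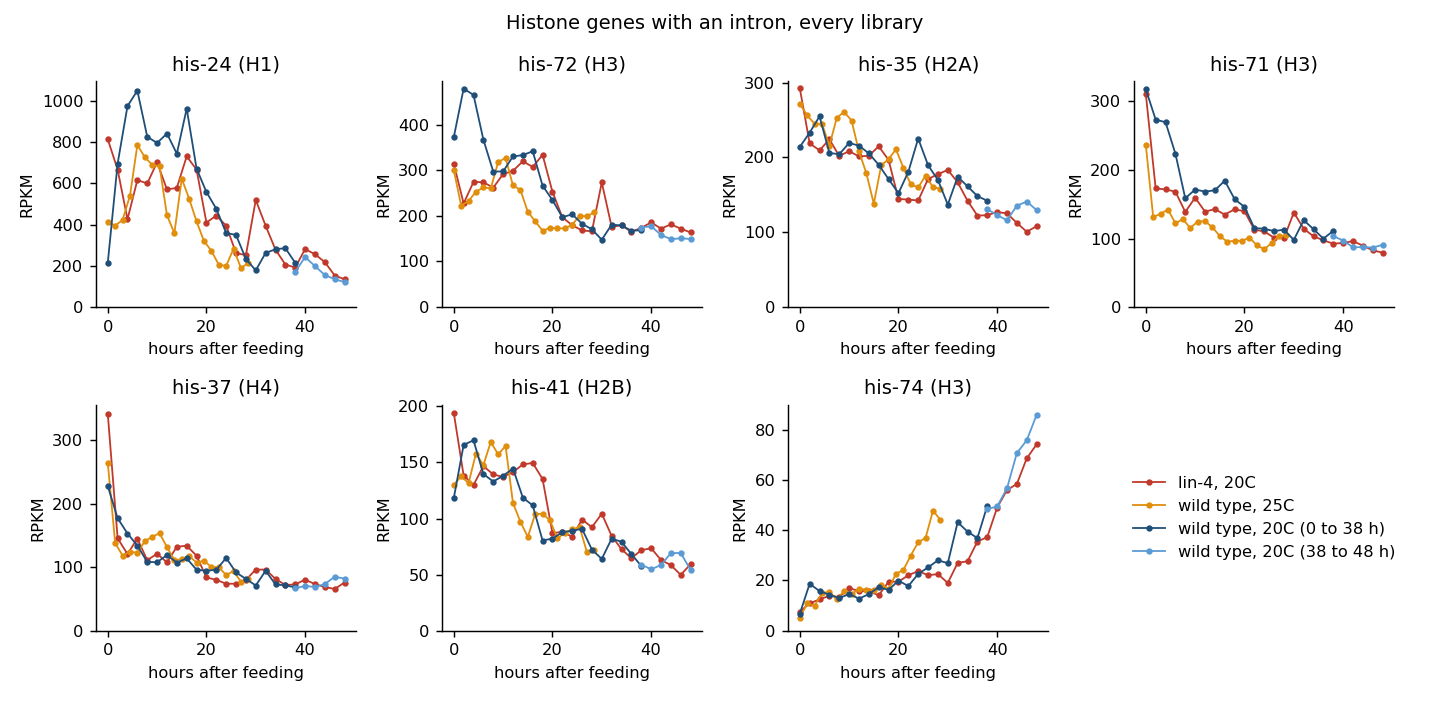
RPKM against hours after feeding for the 7 histone genes with an intron, 1 panel per gene, with lin-4 at 20C, wild type at 25C and the wild type populations at 20C as separate lines and 1 point per library. his-24 and his-41 are lower late in each course, and his-74 is higher, reaching 85.8 RPKM in wild type at 48 h.

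The single-exon members kept a course of their own. Their summed level was 48.4, 166 and 313 RPKM (lowest, median and highest of 17 libraries) in lin-4 larvae over 6 to 38 h. It was 39.6, 268 and 534 RPKM in wild type at 25C and 133, 285 and 521 RPKM in wild type at 20C. All 3 courses had their lowest library early, at 8 h in lin-4 larvae, 4.5 h at 25C and 8 h in wild type at 20C. They then rose and fell several times, with the highest peaks in lin-4 larvae at 16 and 30 h, at 25C at 7.5, 19.5 and 25.5 h, and in wild type at 20C at 16, 24 and 32 h. The lin-4 peak at 30 h is the library that stood apart, and its neighbours at 28 and 32 h had 185 and 254 RPKM.

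The members followed the sum closely. Of the members with a mean of at least 1 RPKM, the lowest library was at 8 h for 47 of 51 in lin-4 larvae, at 4.5 h for 55 of 57 at 25C and at 8 h for 39 of 57 in wild type at 20C. The highest was at 25.5 h for 41 of 57 at 25C and at 24 h for 41 of 57 in wild type at 20C, while in lin-4 larvae it was spread over 14, 16, 20 and 30 h. The median correlation of a single-exon member with the mean of the others was 0.94 in lin-4 larvae, 0.92 at 25C and 0.83 in wild type at 20C. For the members with an intron it ranged from -0.66 to 0.54 over the 3 courses. These correlations are a description over the libraries of a course, and the single-exon rows share near-equal values.

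**Figure D3:**
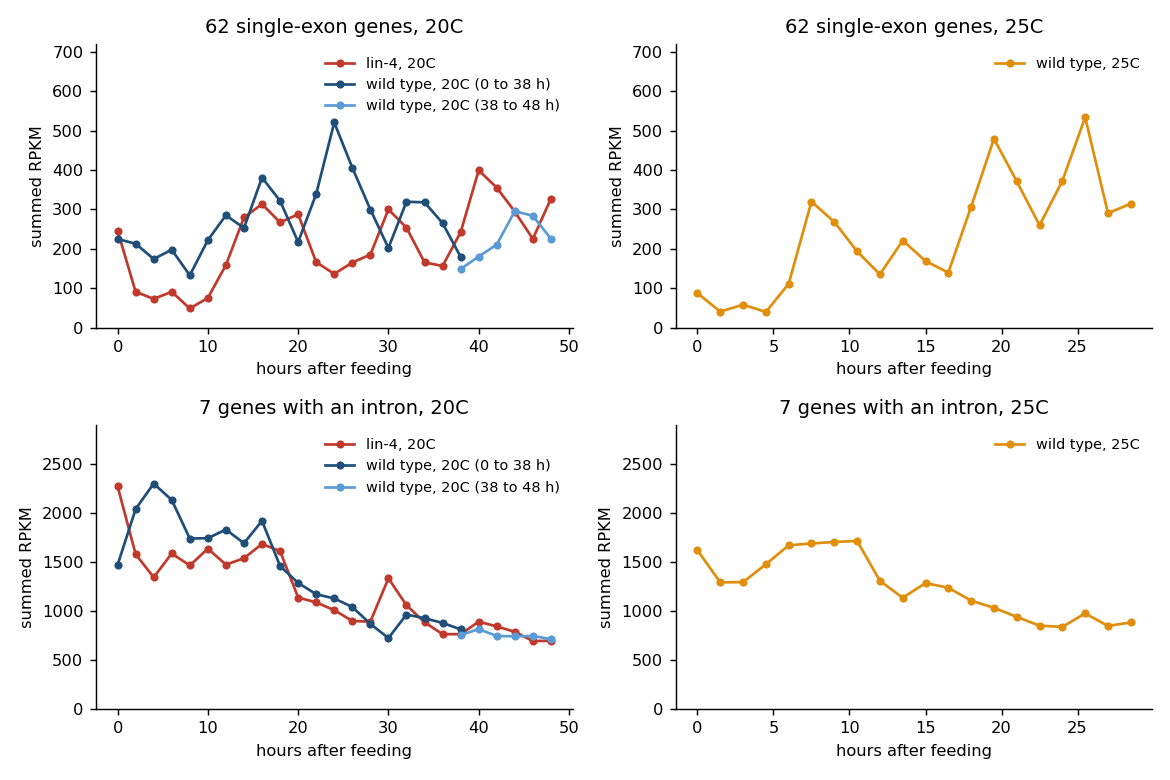
Summed RPKM of the 62 single-exon histone genes (top) and of the 7 histone genes with an intron (bottom) against hours after feeding; left panels show lin-4 and both wild type populations at 20C, right panels wild type at 25C, 1 point per library. The single-exon sum peaks at 534 RPKM at 25C and at 521 RPKM in wild type at 20C, while the intron sum is lowest late.

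Upward trends of single-exon members were called in 2 of the 3 courses. In lin-4 larvae 17 of 51 tested members rose and 0 fell, against 9.01% of all genes called higher and 15.5% called lower. In wild type at 25C 40 of 57 rose and 0 fell, against 11.1% and 16.7% of all genes. In wild type at 20C 0 of 57 were called in either direction, against 9.45% called higher and 16.4% called lower. An unadjusted p under 0.05 was found for 6, which went in both directions. They were his-68 (0.97), the near-equal rows his-11, his-15 and his-44 (0.77 each), his-2 (-0.53) and his-32 (-0.88). The median change of the tested single-exon members was 0.93 log2 units in lin-4 larvae, 1.35 at 25C and 0.23 in wild type at 20C, and that of all genes was -0.25, -0.14 and -0.09. Per near-equal group, 8 of 21 rose in lin-4 larvae and 14 of 23 at 25C.

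These counts depended on single early or late libraries. Without the 4.5 h library, 23 members rose at 25C. In lin-4 larvae 7, 6, 11, 10 and 10 members rose without the library of 6, 8, 10, 30 and 32 h. In wild type at 20C 9 members rose without the library of 38 h and 1 rose without that of 6 h or of 30 h, and 1 fell without that of 14 h. Rescaling the libraries moved the median of all genes by 0.18 to 0.30 log2 units in these fits. It changed the split of all called genes from 1158 higher and 1988 lower to 1522 and 1172 in lin-4 larvae, from 1447 and 2164 to 1709 and 1637 at 25C, and from 1206 and 2100 to 1525 and 1701 in wild type at 20C.

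Within the classes, H2B and H2A genes were called most often at 25C, with 13 of 15 and 11 of 14, against 7 of 14 H3 and 9 of 14 H4 genes. In lin-4 larvae 6 of 12 H2A, 7 of 13 H2B, 1 of 13 H3 and 3 of 13 H4 genes rose. No test of a difference between classes was made. These are counts of rows and not of near-equal groups. For example, the H2A rows his-19, his-21, his-51 and his-53 were identical in all 71 libraries. Among members at 25C, his-59 (H3) rose by 2.21 log2 units, his-15 (H2B) by 1.99 and his-7 (H2A), in the same near-equal group as his-59, by 1.96. There his-53 (H2A) rose by 1.89, his-62 (H2B) by 1.86, his-3 (H2A) by 1.84 and his-60 (H4) by 1.54. In lin-4 larvae his-59 (H3) rose by 2.07 ± 0.49, his-15 by 1.52, his-60 by 1.50, his-48 (H2B) by 1.16, his-62 by 1.15 and his-3 by 1.03 log2 units. The change of his-7 there was 0.99 ± 0.36 and was not called. In wild type at 20C the largest change of an H2A member was 0.97 ± 0.18 for his-68, which passed the adjusted p and not the size.

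his-60, the highest H4 row, shows the range behind these changes. It had 1.33, 6.64 and 10.8 RPKM in lin-4 larvae, 3.35, 8.05 and 23.9 RPKM in wild type at 25C and 4.02, 8.36 and 18.4 RPKM in wild type at 20C. The lowest library was at 10 h in lin-4 larvae, at 4.5 h at 25C and at 8 h in wild type at 20C, so each course began near its minimum. his-3 had 1.43, 6.6 and 10.2 RPKM in lin-4 larvae, 1.1, 8.6 and 24.7 RPKM at 25C and 4.66, 7.56 and 17.1 RPKM in wild type at 20C. The ranges of the 3 courses overlap for both genes.

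The trends themselves were compared between courses. The change with time of the lin-4 minus wild type difference at 20C was positive for 55 of 57 single-exon members, and 0 were called, against 3.55% of all genes in either direction, with 1 member at an unadjusted p under 0.05. For 25C minus 20C it was positive for 56 of 57 members and 1 was called higher, against 2.28% of all genes, and 0 were called lower, against 1.3%. That member was his-2 (H3), at 1.13 ± 0.37 log2 units (limma adjusted p = 0.0497). Its call was lost in 26 of 33 fits that left out 1 library. Several other members, in part near-equal rows, had an unadjusted p under 0.05 for 25C minus 20C, all with a positive difference. Among them were his-6 at 1.28, his-4 at 1.17 and his-61 at 1.05 log2 units. The share of all genes at that unadjusted p is not given here. A difference in trend between the populations was therefore not called for the other 56 members, although the trend was called for many at 25C and for none in wild type at 20C. The all-gene medians were -0.09 log2 units for lin-4 minus wild type and -0.03 for 25C minus 20C. Many of the 57 rows share near-equal values, so their signs are not 57 separate results.

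**Figure D4:**
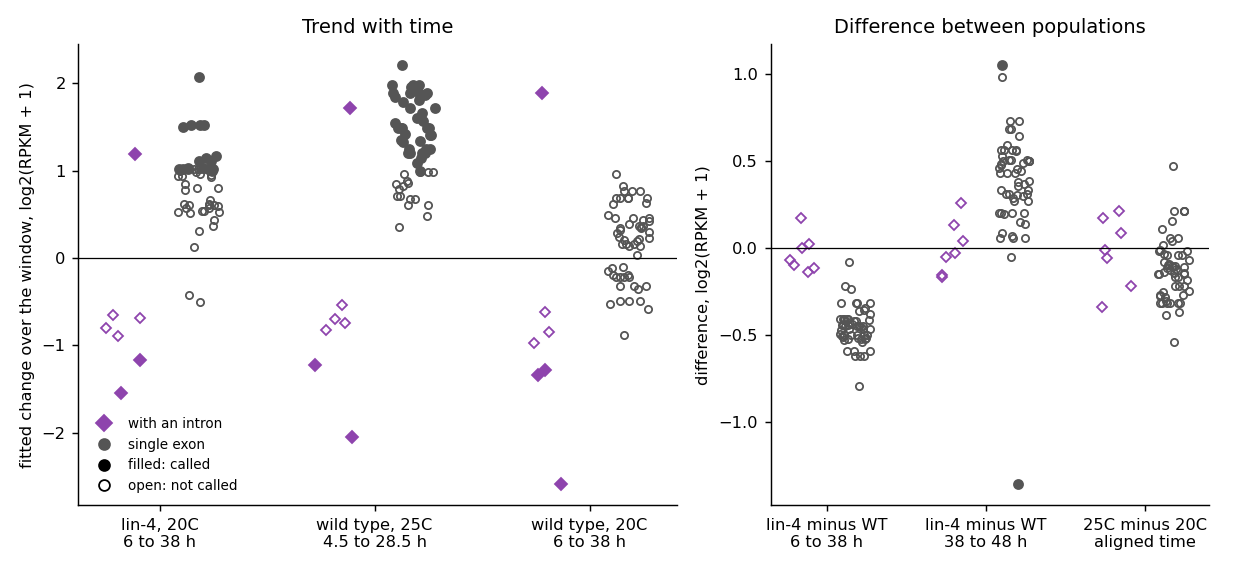
Fitted log2 changes of histone genes, 1 point per gene, with single-exon genes and genes with an intron apart and filled points for called genes. The left panel gives the trends in lin-4, wild type at 25C and wild type at 20C, with single-exon medians of 0.93, 1.35 and 0.23, and the right panel the differences lin-4 minus wild type (6 to 38 h, 38 to 48 h) and 25C minus 20C.

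The repeated rise and fall was also tested as a cycle, at the period within 4 to 12 h that fitted all genes best. It was 12 h in lin-4 larvae, 7.75 h in wild type at 25C and 11.25 h in wild type at 20C. For lin-4 larvae 12 h is the upper edge of that scan, and 14 h fitted best when the scan ran to 16 h. The lin-4 trend fit above also used 12 h. Of the single-exon members, 5 of 51 were called as cycling in lin-4 larvae, against 8.98% of all genes. At 25C 0 of 57 were called, against 10.9%, with 1 member at an unadjusted p under 0.05. In wild type at 20C 0 of 57 were called, against 13.7%. At the adjusted p alone 20 passed, with a range under 1 log2 unit. The share of all genes at that threshold is not given here. Of the 20, 11 were among 15 H2B genes, and all 11 are rows of the near-equal groups of his-15, his-7 and his-29. In lin-4 larvae his-60 had a fitted range of 1.17 ± 0.23 log2 units, his-26 (H4) of 1.07 and his-7 of 1.00. Leaving out 1 library gave 0 to 13 members in lin-4 larvae, with 1 without the 30 h library, and 0 to 11 in wild type at 20C.

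Feeding of arrested larvae was compared over 3 populations, with lin-4 at 20C and both wild type courses each giving 1 fed library (6 h at 20C, 4.5 h at 25C) and 1 arrested library (0 h). Of 49 tested single-exon members, 1 was called higher and 4 lower after feeding, against 8.86% and 10.1% of all genes. The median change was -0.52 log2 units, with negative values in 44 of the 49. his-32 (H3) had 3.92, 2.19 and 20.0 RPKM in fed lin-4, 25C and 20C wild type larvae and 2.79, 0.484 and 4.93 RPKM in the arrested larvae of those populations. It was higher after feeding in all 3 populations, although the groups overlap, and rose by 1.1 ± 0.29 log2 units (limma adjusted p = 0.031).

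his-26 (H4) had 1.97, 0.311 and 2.69 RPKM in fed lin-4, 25C and 20C wild type larvae, against 15.5, 1.98 and 5.24 RPKM in the arrested larvae, lower in all 3 populations. It fell by 1.47 ± 0.34 log2 units, and his-62 (H2B) fell by 1.04 ± 0.18. The other 2 members that fell, his-10 and his-14, are near-equal to his-26. The count of members that fell was 0 without the lin-4 pair and 14 without the wild type pair at 20C, and that of members that rose was 0 without either wild type pair. With the population left out of the fit, 0 were called in either direction.

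Of the members with an intron, his-74 rose by 1.05 ± 0.18 log2 units (limma adjusted p = 0.0091) and his-37 fell by 1.03 ± 0.16 (limma adjusted p = 0.008). his-74 had 13.9, 15.0 and 14.3 RPKM in fed lin-4, 25C and 20C wild type larvae, against 7.61, 5.11 and 6.78 RPKM in arrested larvae. his-37 had 145, 124 and 134 RPKM in the fed larvae, against 342, 265 and 228 RPKM in the arrested ones. The groups did not overlap for either gene. Leaving out 1 population ended the call of his-74 in 1 of 3 fits and that of his-37 in 2 of 3.

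Genes of DNA replication were followed over the same step, and no test of their difference from the histones was made. Of 30 S-phase genes, 20 rose and 0 fell, with a median of 1.40 log2 units, and the all-gene median was -0.15. Among them rnr-1, which encodes the large subunit of ribonucleotide reductase, rose by 2.37 log2 units, and the replicative helicase subunits mcm-4 and mcm-2 rose by 2.21 and 2.2. Of 21 mitosis genes 13 rose, with a median of 1.31. Among histone chaperones 3 of 12 tested rose, led by chaf-2, a subunit of chromatin assembly factor 1, at 2.22. The stem-loop binding protein gene cdl-1 rose by 1.28 ± 0.26 log2 units (limma adjusted p = 0.016) as the 1 called gene of 10 in the list on histone mRNA 3′ ends.

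The same lists were followed over the later windows, again with no test of a difference from the histones. Of the 30 S-phase genes, 1 rose and 1 fell in lin-4 larvae, 2 rose and 1 fell at 25C, and 1 rose and 3 fell in wild type at 20C, with medians of -0.49, -0.33 and -0.53 log2 units. In wild type at 20C the summed S-phase level was highest at 10 h, with 1247 RPKM, and lowest at 22 h, with 589 RPKM. The single-exon histone sum there was highest at 24 h. In lin-4 larvae the S-phase sum had local peaks at 14, 30 and 40 h, and the single-exon sum at 6, 16, 20, 30 and 40 h. At 25C they were at 3, 9, 19.5 and 24 h, against 3, 7.5, 13.5, 19.5 and 25.5 h. In wild type at 20C they were at 2, 10, 26 and 34 h, against 6, 12, 16, 24 and 32 h. The lin-4 library of 30 h stood apart, and how far the peaks coincide was not tested. Germline markers rose in every course, with 14, 18 and 19 of 22 called in lin-4, 25C and 20C wild type larvae. The P-granule helicase gene glh-1 rose by 3.09, 3.90 and 3.72 log2 units. Of 12 neuron markers, 8, 9 and 7 fell. The part of these changes in tissue makeup in the histone trends was not tested.

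Of the chaperone list, hmg-3, a subunit of the histone chaperone FACT, and asfl-1, an H3-H4 chaperone of the ASF1 family, rose in all 3 courses. hmg-3 rose by 2.67, 3.68 and 3.56 log2 units and asfl-1 by 2.02, 2.93 and 2.5 in lin-4, 25C and 20C wild type larvae. They were the 2 chaperone genes called higher of 13 tested in each course, and 1, 0 and 1 were called lower. The medians of that list were -0.58, -0.33 and -0.46 log2 units. Of the list on histone mRNA 3′ ends, csr-1, an Argonaute reported to act in histone mRNA maturation, rose by 2.14, 3.37 and 2.58, and ego-1, an RNA-dependent RNA polymerase, by 1.37, 2.39 and 1.87. These were the 2 genes called higher of 10 in each course, with 0 lower. The list medians were -0.25, 0.04 and 0.31 log2 units. Of the histone variants with other names, the linker histone gene hil-4 rose by 1.9, 2.94 and 2.24 log2 units. Of 9 variants tested in each course, 2, 3 and 2 rose and 2, 3 and 4 fell. Their medians were -0.68, -0.78 and -0.85 log2 units. The linker histone genes hil-1 and hil-3 were among those that fell in lin-4 larvae and at 25C.

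Single-exon histone levels were lower in lin-4 larvae than in wild type at the same hours. Over 6 to 38 h at 20C, the difference passed the adjusted p in the lower direction for 47 of 57 tested single-exon members and in the higher direction for 0, against 5.74% of all genes lower and 28.8% higher. No member also reached 1 log2 unit, a size with which 1.14% of all genes were called. The difference was negative for all 57, with a median of -0.45 log2 units and a lowest value of -0.79, and the all-gene median was 0.09. Per near-equal group, 18 of 23 were lower, and in a fit without the pairing by hour 24 of 57 members were. A member was lower in lin-4 in 9 to 15 of the 17 pairs, with a median of 13.

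The summed single-exon level was lower in lin-4 larvae in 13 of 17 pairs, with a median ratio of 0.59. At 24 h it was 136 RPKM in lin-4 larvae, against 521 RPKM in wild type, and at 30 h, where the lin-4 library stood apart, it was 299.8 RPKM, against 202 RPKM. Before feeding the sums were 246 RPKM in lin-4 and 225 RPKM in wild type larvae. At 2 and 4 h they were 90.7 and 72.9 RPKM in lin-4 larvae, against 213 and 174 RPKM in wild type.

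Among the single-exon members, his-32 averaged 8.14 ± 5.32 RPKM (SD) in lin-4 larvae and 13.7 ± 5.38 RPKM in wild type over these 17 pairs, a difference of -0.79 ± 0.24 log2 units (limma adjusted p = 0.014) that was lower in 11 pairs. his-48 averaged 4.65 ± 1.80 RPKM in lin-4 larvae and 7.08 ± 2.40 RPKM in wild type, a difference of -0.54 ± 0.12 (limma adjusted p = 0.0023) that was lower in 13 pairs. The spread within each group is mostly the course over time, and the ranges overlap.

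The lag of the lin-4 course stands beside this difference. With lin-4 time multiplied by 0.85, the factor that aligned the 2 courses best, 41 members were lower at the adjusted p, against 9.4% of all genes, with a median of -0.32 log2 units. Without the 30 h library, 38 members were lower in the aligned fit. Set against the wild type library that each lin-4 library resembled most, the sum was lower in 14 of 17 libraries, with a median ratio of 0.76, and in 13 of 16 with a median ratio of 0.69 without 30 h. Both of these comparisons were added after the data had been seen. Genotype, stage and population cannot be told apart in them.

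Genes of DNA replication, mitosis and the germline were compared between lin-4 and wild type in the same fit, and no test of their difference from the histones was made. The median of lin-4 minus wild type was 0.15 log2 units for the S-phase list, 0.14 for mitosis and 0.07 for the germline markers, with 0 genes called in any of these lists. At the adjusted p alone, 10 of 30 S-phase genes were higher and 0 lower in lin-4 larvae, 6 of 21 mitosis genes were higher and 1 lower, and 2 of 22 germline markers were higher and 0 lower. Of the 7 members with an intron, 0 were called and 2 passed the adjusted p alone, 1 in each direction. his-71 differed by -0.14 ± 0.05 log2 units (limma adjusted p = 0.046), lower in lin-4 in 16 of 17 pairs, and his-41 differed by 0.17 ± 0.06 (limma adjusted p = 0.048), higher in lin-4 in 12 of 17 pairs. his-71 averaged 126 ± 23.1 RPKM in lin-4 larvae and 140.2 ± 35.7 RPKM in wild type, and his-41 109 ± 30.9 RPKM in lin-4 larvae and 96.5 ± 28.5 RPKM in wild type.

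From 38 to 48 h, lin-4 larvae were compared with the later wild type population, and few single-exon members passed the test. Of 58 tested, 1 was called higher and 1 lower, against 1.19% and 2.65% of all genes. At the adjusted p alone 2 were higher, his-31 and his-32, and 1 was lower, his-70, against 19.9% and 7.17% of all genes. The single-exon sum was 225, 311 and 399 RPKM (lowest, median and highest of 6 libraries) in lin-4 larvae and 149, 218 and 296 RPKM in the independent wild type population. The fitted lin-4 minus wild type difference was positive for 56 of the 58, with a median of 0.43 log2 units beside 0.12 for all genes. At 38 h, the 1 hour sampled in both wild type populations at 20C, the sum was 149 RPKM in the later and 179.5 RPKM in the first population. Over both wild type populations at 20C, each of the 6 lin-4 libraries was most like an earlier library, 5 of them one of the first population 6 to 8 h earlier and 1 one of the later population 4 h earlier.

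his-70 was the member called lower. It is an H3 gene of the H3.3-like group in C. elegans, and it was nearly silent until then, with a highest value of 0.109 RPKM in lin-4 larvae and 0.764 RPKM in wild type at 20C over 6 to 38 h. At 38, 40, 42, 44, 46 and 48 h it had 0, 0, 0.168, 0.167, 1.91 and 5.16 RPKM in lin-4 larvae, against 0.168, 0.668, 2.5, 2.79, 9.10 and 26.0 RPKM in wild type. It was lower in lin-4 larvae at each of the 6 hours, a difference of -1.36 ± 0.27 log2 units (limma adjusted p = 0.018). Set against wild type at 44 h, the library that lin-4 larvae at 48 h resembled most, it was 5.16 RPKM in lin-4 and 2.79 RPKM in wild type. The call was lost without the lin-4 library of 42, 44 or 46 h and in a fit without the pairing by hour.

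his-32 was the member called higher. It had 7.02, 9.05, 8.04, 7.58, 6.17 and 5.69 RPKM in lin-4 larvae over 38 to 48 h, against 5.15, 6.16, 5.37, 2.82, 0.882 and 0.862 RPKM in wild type. It was higher in lin-4 larvae at each hour, by 1.05 ± 0.26 log2 units (limma adjusted p = 0.032), and the wild type values at 46 and 48 h were the lowest of the 12. The call was lost in 5 of the 6 fits that left out 1 hour, all but that of 38 h, and when libraries were rescaled. his-31 (H4) had 2.05 to 4.15 RPKM in lin-4 larvae over the 6 hours, against 0.781 to 1.44 RPKM in wild type, with no overlap and a difference of 0.98 ± 0.06 log2 units (limma adjusted p = 0.00083), just under the size of change. Of the members with an intron, his-24 averaged 206 ± 57.4 RPKM in lin-4 larvae and 171 ± 44.5 RPKM in wild type, a difference of 0.26 ± 0.06 log2 units (limma adjusted p = 0.029) that was higher in 6 of 6 pairs.

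Within the wild type population of 38 to 48 h, 3 of 57 tested single-exon members rose and 1 fell, against 10.5% and 2.81% of all genes, with a median of 0.42 log2 units. his-70 rose by 4.37 ± 0.45 log2 units (limma adjusted p = 0.0078). his-59 (H3) was in the near-equal group of his-7 (H2A), with 0 libraries identical to it. his-59 had 6.75, 10.2, 10.3, 8.92, 4.36 and 7.79 RPKM in lin-4 larvae at these hours, against 2.88, 3.35, 4.15, 5.28, 7.83 and 8.04 RPKM in wild type. In wild type it was higher at each hour than at the hour before, and it rose by 1.35 ± 0.13 (limma adjusted p = 0.0076). The change of his-7 was 0.56 ± 0.31 (limma adjusted p = 0.24), which was not called. his-68 (H2A) rose by 1.08 ± 0.28 (limma adjusted p = 0.045), a call lost without any 1 of the 6 libraries. his-32 fell by 2.16 ± 0.43 (limma adjusted p = 0.023), a call lost without the library of 40, 46 or 48 h. Without the library of 48 h, 6 members rose.

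**Figure D5:**
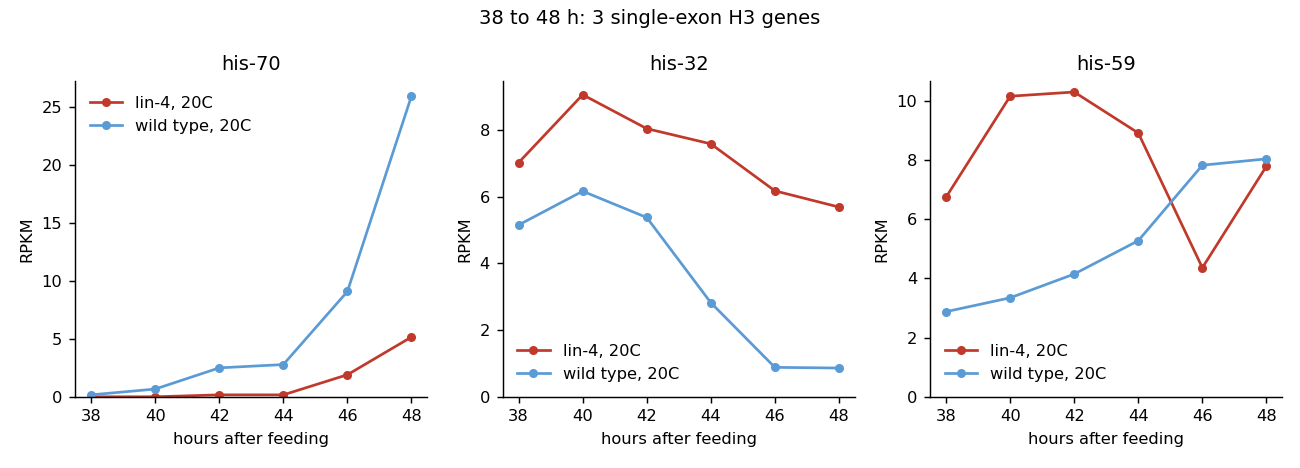
RPKM of his-70, his-32 and his-59 against hours after feeding from 38 to 48 h in lin-4 larvae and in the wild type population at 20C, 1 point per library. his-70 reaches 5.16 RPKM in lin-4 and 26.0 RPKM in wild type at 48 h, his-32 is higher in lin-4 at each hour, and his-59 climbs steadily in wild type.

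Temperature was compared after multiplying time at 25C by 1.3, the factor at which the wild type courses correlated best (mean r = 0.967), which left 16 libraries at 25C. No histone gene was called between 25C and 20C, against 1.69% of all genes in either direction. At the adjusted p alone 1 single-exon member was higher and 7 were lower of 57, against 35.8% and 12.3% of all genes. Their median difference was -0.13 log2 units, and that of all genes 0.08. The lower count moved between 2 and 17 as single libraries were left out.

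Among these, his-38 (H4) differed by 0.47 ± 0.12 log2 units (limma adjusted p = 0.0026), higher at 25C, and his-32 (H3) by -0.54 ± 0.13 (limma adjusted p = 0.0012). Of the members with an intron, his-71 differed by -0.34 ± 0.05 log2 units and his-24 by -0.22 ± 0.09, while his-37 differed by 0.21 ± 0.04 and his-41 by 0.17 ± 0.04, all past the adjusted p. The trend of his-72 was higher at 25C than at 20C by 0.59 ± 0.14 log2 units over the window (limma adjusted p = 0.0089) and that of his-71 by 0.53 ± 0.15 (limma adjusted p = 0.02). Both genes declined in both courses, and the decline was smaller at 25C.

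The genes whose course was most like that of the core histone members were ranked over the 20 libraries of wild type at 20C, by the correlation of log2(RPKM + 1) with the mean of the members, among 12983 other genes. The leading genes were K01A2.5 (r = 0.78), F32H2.11 (0.77), fmo-4 (0.76), ptr-11 (0.75) and T01B7.9 (0.75), and the tenth was F54F11.1 (0.72). None of the 5 named first is in the lists of S-phase or histone-related genes. These values describe 1 series of libraries, and no test was made.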

How the data were processed

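Poly(A)+ RNA of whole larvae was sequenced in 71 libraries of 4 populations. The authors deposited 1 table of RPKM values per gene (reads scaled by gene length and library size). The submitters' processing notes name BWA 0.5.9 as the aligner. Build, annotation, counting rule and strand use are not stated in any source used here, so no coordinates or sequences are given. Cells without a value were taken as 0, and 2654 unnamed entries of 21777, holding 1.58 to 3.03% of summed RPKM, were left out. Depth was estimated from the steps between values of genes below 1 RPKM, and it limits the precision of low rows.

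Models were fitted with limma 3.58.1 (R 4.3.3) to log2(RPKM + 1), over all genes with a mean of at least 1 RPKM over the libraries of the fit, with Benjamini-Hochberg adjustment over all of them, and were tested on simulated data. This scale understates changes of low genes. Calls needed both an adjusted p under 0.05 and 1 log2 unit of change. Periods were scanned over 4 to 12 h in steps of 0.25 h. Tables and plots were made in Python 3.11.15 with pandas 2.3.3, numpy 2.4.6 and matplotlib 3.10.9. Structure, 3′ ends and neighbours come from RefSeq, and histone classes from a hand list compared with coding lengths.

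Libraries were paired by labelled hour or by population. Across genes, the median correlation of deviations within pairs was 0.441 between lin-4 and the first wild type population at 20C (14 of 17 over 0.1), -0.256 with the later one (1 of 6) and 0.343 for feeding (3 of 3).

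The members, lists and tests were chosen with earlier results of these data known. Genes named are the variant members, the highest row of each class, up to 10 called members per comparison (1 per near-equal group) and up to 3 called genes per list; the highest and lowest single-exon rows and members past the adjusted p alone were added after their values were seen. Of 142 listed genes 139 are in the table. Alternatives were a pseudocount of 0.1, no filter, rescaled libraries, other time windows and terms, fits without pairing, 1 member per near-equal group, each library left out, and, added later, aligned lin-4 time.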

Additional observations from a re-analysis of the deposited data

Results flagged for a closer look

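In the wild type population of 38 to 48 h, 37 series of 6 values were tested for a single value far from the rest, and 2 were marked, where chance marks about 1 in 20. his-70 had 26.0 RPKM at 48 h, and his-67, one of the lowest rows, had 1.33 RPKM at 46 h. The his-70 value is the last of a series that climbed through all 6 libraries, and the lin-4 larvae also had their highest value, 5.16 RPKM, at 48 h.

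Differences between courses were marked for 4 members by the test of the difference in trend. his-74 rose by less in lin-4 larvae than in wild type at 20C, a difference of -0.61 ± 0.19 log2 units over the window (limma adjusted p = 0.046). The trends at 25C were higher than at 20C by 1.13 log2 units for his-2, by 0.53 for his-71 and by 0.59 for his-72.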

How the results depend on the processing

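Counts of called single-exon members moved with the settings more than the values of the members with an intron, and no result changed its sign among those called. Of the counts, 150 comparisons with another setting stayed within 1.5 times and 49 did not, and of the single values 583 kept their side of the threshold, 40 lost it, 8 gained it and 8 moved. The causes were not tested.

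With a pseudocount of 0.1, 1 member rose in wild type at 20C, 29 in lin-4 larvae and 5 in wild type of 38 to 48 h, 11 cycled in wild type at 20C, 9 fell after feeding, 2 were higher in lin-4 larvae at 38 to 48 h and 0 had a higher trend at 25C. With rescaled libraries, 1 rose and 7 cycled in wild type at 20C, 0 were higher in lin-4 larvae at 38 to 48 h, 17 were lower at 25C and 0 had a higher trend there. Without the filter, 0 rose after feeding and 0 had a higher trend at 25C.

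With all time points, 12 members rose in wild type at 20C and 0 cycled in lin-4 larvae. With time alone, 2 rose in wild type at 20C and 10 in lin-4 larvae. Over 6 to 48 h 37 rose in lin-4 larvae. Linear time left 0 cycling in lin-4 larvae, and periods scanned to 16 h, where 14 h fitted best, gave 19. With 1 member per near-equal group, 14 rose at 25C, 8 rose and 3 cycled in lin-4 larvae, 2 fell after feeding, 18 were lower in lin-4 larvae and 4 at 25C.

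Without the pairing (no replicate block), 0 members rose and 0 fell after feeding, 24 were lower in lin-4 larvae over 6 to 38 h and 0 over 38 to 48 h; it moved no other count by over 1.5 times.

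Leaving out each library in turn gave 0 to 9 members that rose and 0 to 1 that fell in wild type at 20C, 23 to 44 that rose at 25C and 6 to 25 in lin-4 larvae. In wild type of 38 to 48 h it gave 2 to 6 that rose and 0 to 1 that fell. Cycling members numbered 0 to 11 in wild type at 20C and 0 to 13 in lin-4 larvae. After feeding 0 to 1 rose and 0 to 14 fell. In lin-4 larvae 35 to 53 were lower over 6 to 38 h, and 0 to 1 were higher and 0 to 1 lower over 38 to 48 h. At 25C 2 to 17 were lower and 0 to 2 had a higher trend. The about 27 reads behind a single-exon value limit what can be told of those members.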
